A study of Homo sapiens with 4 samples.

Results

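The 10 genes described here encode parts of the unfolded protein response of the endoplasmic reticulum (ER): the chaperones HSPA5, HSP90B1 and DNAJB9, the protein disulfide isomerases PDIA4 and PDIA6, the degradation genes SEL1L, EDEM1 and HERPUD1, and the stress sensors ERN1 and ATF6. They were chosen by name, with no use of their measured values in the rule, and all 10 were found among the 25066 genes of the table and passed the filter on low values. RNA was sequenced from NUDUL1, a human lymphoma cell line of the diffuse large B cell type with features of germinal center B cells. The Cas9-engineered cells of the study were dilution-cloned lines with doxycycline-inducible Cas9 that had been transduced with Tbxa2r, the thromboxane A2 receptor, which couples to Gα13, the G protein subunit encoded by GNA13. How many clones stood behind these cultures is not given in the sources used here. Cells expressing a control sgRNA (labelled control, 2 libraries) were compared with cells expressing 1 GNA13-targeting sgRNA (labelled GNA13-deficient, 2 libraries). All 4 cultures received U46619, a thromboxane A2 analog and agonist of that receptor, at 10 nM for 24 h, so no untreated cells entered the comparison. The labels call the treatments duplicates of each genotype and state nothing on separately derived knockout cultures. The p values below rest on the spread between such duplicates, with each gene's variance drawn toward that of other genes. They do not measure the spread between separately derived cultures. The share of cells edited by the GNA13 sgRNA in these cultures is not given in the sources used here.

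The ER folds secreted and membrane proteins, including immunoglobulin in B cells. When unfolded proteins accumulate, 3 sensors of the ER membrane, IRE1 (encoded by ERN1), ATF6 and PERK (encoded by EIF2AK3), signal to the nucleus and to the ribosome. IRE1 splices XBP1 mRNA into the form that encodes an active transcription factor, ATF6 is cleaved in the Golgi by the proteases encoded by MBTPS1 and MBTPS2, and PERK phosphorylates the translation factor eIF2α, which favors translation of ATF4. The targets of XBP1 and ATF6 include chaperones, disulfide isomerases and the machinery of ER-associated degradation (ERAD), which exports misfolded proteins to the cytosol for destruction. This response is needed for plasma cells to secrete antibody. Reads summed per gene, as measured here, show neither the splicing of XBP1 mRNA nor the amount, cleavage or phosphorylation of any protein.

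A short DNA element links several of the 10 genes at the sequence level. The ER stress response element (ERSE) consists of CCAAT, 9 bases of any kind and CCACG and is known as a site through which ATF6 and the factor NF-Y activate ER chaperone genes, and the related ERSE-II consists of ATTGG, 1 base of any kind and CCACG. RefSeq promoter windows (GRCh38.p14, from 250 bases before to 50 after the annotated start) were present for all 10 genes, 12 windows in total. They were searched on both strands for exact matches of the letters only, so near copies of an element were not counted. ERSE was found in 3 of the 10 genes (1 window each of HSPA5, HSP90B1 and PDIA6) against 0.0769% of all 35116 windows. The 10 genes were chosen as ER response genes and ERSE is known from ER chaperone genes, so this contrast is no test. ERSE-II was found in 1 gene (HERPUD1) against 0.0541% of all windows. The element TGACGTGG, known as the UPRE, was found in none of the 12 windows and in 0.729% of all windows. The 5-letter core CCACG, which lies within both ERSE and ERSE-II, was found in 8 of the 10 genes, all but ERN1 and ATF6, but it also occurs in 38.1% of all windows. The 250 bases before the start are printed below, 5′ to 3′ on the strand of the gene, for the 4 genes with a full element and for DNAJB9, one of the genes that passed the expression test. Capitals mark ERSE in HSPA5, HSP90B1 and PDIA6, ERSE-II in HERPUD1, and the core CCACG on either strand in DNAJB9. The stretches are chr9:125241344-125241593 (minus strand) for HSPA5, chr12:103930160-103930409 (plus strand) for HSP90B1, chr2:10812786-10813035 (minus strand) for the second annotated start of PDIA6, chr16:56931892-56932141 (plus strand) for HERPUD1 and chr7:108569624-108569873 (plus strand) for DNAJB9.
HSPA5: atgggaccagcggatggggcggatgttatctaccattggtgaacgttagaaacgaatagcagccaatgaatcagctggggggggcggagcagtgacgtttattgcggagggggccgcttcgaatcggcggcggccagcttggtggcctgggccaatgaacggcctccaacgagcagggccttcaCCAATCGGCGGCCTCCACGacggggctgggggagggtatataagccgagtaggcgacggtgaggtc
HSP90B1: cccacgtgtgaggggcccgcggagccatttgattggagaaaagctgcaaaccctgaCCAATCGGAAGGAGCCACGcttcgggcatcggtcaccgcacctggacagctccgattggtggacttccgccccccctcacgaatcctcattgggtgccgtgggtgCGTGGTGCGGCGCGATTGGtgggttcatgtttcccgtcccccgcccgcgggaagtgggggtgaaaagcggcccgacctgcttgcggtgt
PDIA6: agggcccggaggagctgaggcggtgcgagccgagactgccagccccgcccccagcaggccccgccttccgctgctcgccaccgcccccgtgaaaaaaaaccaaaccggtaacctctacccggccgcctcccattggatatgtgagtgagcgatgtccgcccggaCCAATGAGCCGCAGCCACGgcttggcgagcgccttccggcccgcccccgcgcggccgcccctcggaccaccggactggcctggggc
HERPUD1: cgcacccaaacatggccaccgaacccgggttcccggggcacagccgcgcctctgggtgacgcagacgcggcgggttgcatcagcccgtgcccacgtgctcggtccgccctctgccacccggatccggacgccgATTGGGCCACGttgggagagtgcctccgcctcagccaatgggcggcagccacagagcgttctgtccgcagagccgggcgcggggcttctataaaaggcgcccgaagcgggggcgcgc
DNAJB9: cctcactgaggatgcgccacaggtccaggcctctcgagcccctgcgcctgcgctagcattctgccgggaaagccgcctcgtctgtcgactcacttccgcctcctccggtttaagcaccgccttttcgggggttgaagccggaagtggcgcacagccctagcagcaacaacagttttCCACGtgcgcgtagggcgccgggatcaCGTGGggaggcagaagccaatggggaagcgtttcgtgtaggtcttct
Positions are counted along the gene with the annotated start at 0. HSPA5 held a single exact match of ERSE, from -66 to -48, which does not count copies of the element that depart from these letters. HSP90B1 held a pair of exact matches, from -194 to -176 on the gene's strand and from -89 to -71 on the opposite strand. In PDIA6 the element lay from -86 to -68 of the second start, and in HERPUD1 the ERSE-II lay from -117 to -107. A match of letters is a description of the window and is not evidence that a factor was bound in these cells.

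**Figure D1:**
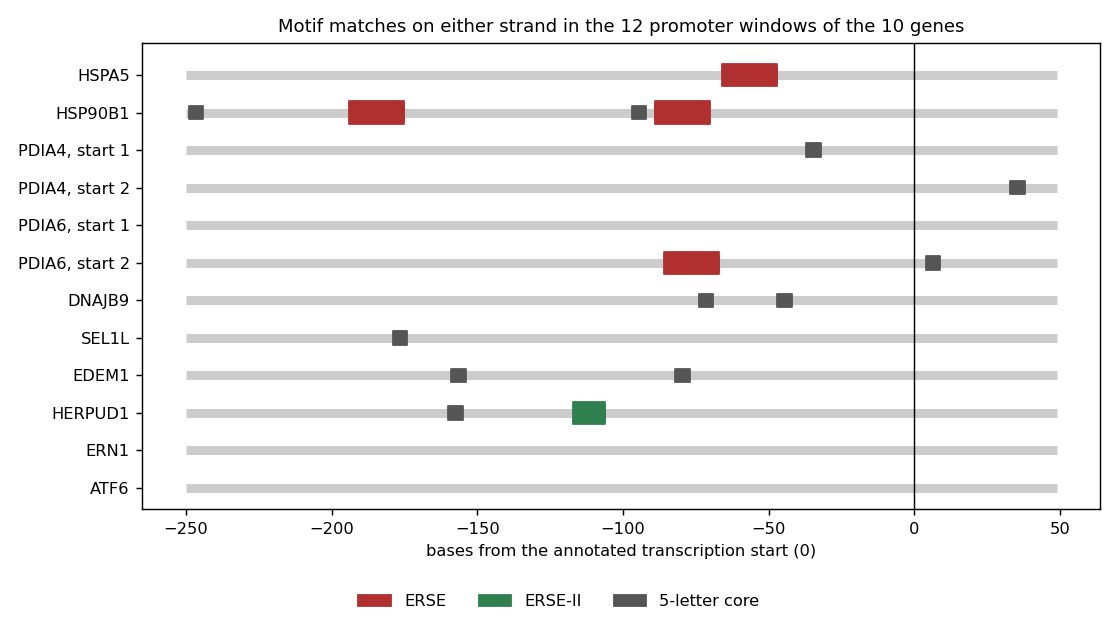
Matches of ERSE, ERSE-II and their 5-letter core in the promoter windows of the 10 genes. The horizontal axis gives bases from the annotated start, each gray line is 1 of the 12 windows, and colored bars mark matches on either strand. A core inside a larger element lies under that element's bar. ERSE appears in HSPA5, HSP90B1 and PDIA6 and ERSE-II in HERPUD1.

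The libraries held 29209544 and 31537955 mapped reads for the libraries labelled control and 30141459 and 29685942 for those labelled GNA13-deficient. GNA13 mRNA was not lower but higher in the libraries labelled GNA13-deficient, at log2 values of 13.10 and 13.11 against 12.46 and 12.45 (difference 0.65, SE 0.05, limma adjusted p = 0.00214). The amount of this mRNA does not show whether the protein was made and so does not check the labels, and the libraries are named by their labels throughout. Of the lineage markers, all 6 B cell genes were expressed, with summed normalized reads of 54790 to 59080 in control and 52950 to 57280 in GNA13-deficient libraries, and 4 T cell genes were listed at 0 apart from a single read of CD3G in 1 library. Of 6 germinal center B cell markers 0 rose and 2 fell, BCL6 (difference -2.49, 0.179-fold) and LMO2 (-3.70, 0.0769-fold). The list's summed level, most of it MME (difference -0.02), was 19110 to 19950 in control and 17270 to 17780 in GNA13-deficient libraries. Because plasma cells run a strong ER response, their 6 markers were examined beside the 10 genes. PRDM1, IRF4 and TNFRSF17 fell (differences -1.85, -0.32 and -0.59), while MZB1 (listed as MGC29506, difference -0.04), JCHAIN (listed as IGJ, 0.22) and SDC1 (-0.35) did not pass the test. Centring each library on its median called 0 of the 6 higher and 1 lower, and quantile normalization called 0 higher and 3 lower. The marker counts of this paragraph are to be read against the 29.7% of all genes tested that passed on the deposited scale. The summed level of the 6 plasma cell markers, most of it JCHAIN, was 90800 to 101600 in control and 97560 to 112300 in GNA13-deficient libraries. Of 4 myeloid markers 2 fell (ITGAM and LYZ), with sums of 227.9 to 242.1 and of 26.89 to 27.71. The part of these markers in the results below was not tested. In such bulk libraries a change in the share of cells in some state and a change in RNA per cell cannot be told apart.

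Whether the ER response differed between the genotypes was examined first for the 10 genes together. PDIA6 rose in the libraries labelled GNA13-deficient, SEL1L and DNAJB9 fell, and the other 7 did not pass the test, which was limma on the deposited log2 values of normalized reads with Benjamini-Hochberg adjustment over the 16945 genes tested and a threshold of 0.05. Across all genes tested 29.7% passed (13.1% higher and 16.6% lower), so 3 of 10 was near the share of the whole table and is no result about these genes as a group. The libraries of the 2 genotypes did not overlap for 8 of the 10 genes, against 65.3% of all genes tested. The median log2 difference, GNA13-deficient minus control, was -0.09 over the 10 genes and -0.02 over all genes tested, with 5 of the 10 differences above 0. Differences ranged from -0.38 (ERN1) to 0.31 (PDIA6), that is from 0.771-fold to 1.24-fold. The direction of the calls depended on the scaling. Centring each library on its median raised the median difference of all genes by 0.21, to 0.18, and changed the calls among the 10 genes from 1 higher and 2 lower to 3 higher (PDIA4, PDIA6 and ATF6) and 0 lower. Under that centring 36.8% of all genes were called, and the share of calls in the higher direction went from 44.03% to 69.14%. Quantile normalization called 0 of the 10 genes higher and 3 lower (SEL1L, EDEM1 and HERPUD1), where 31.2% of all genes were called, 51.83% of them higher. Each of these counts of 3 in 10 was near the share of the whole table. Centring on the more expressed genes, added after seeing the data, called 1 of the 10 genes higher and 3 lower. Under that setting 29.6% of all genes were called. With no filter on low values, or with no variance trend, limma called 0 of the 10 genes, with 4 and 2 of them at an unadjusted p under 0.05. Those settings called only 7.97% and 16% of all genes tested, so these counts are no result about the 10 genes. Leaving out any 1 of the 4 libraries, whether control or GNA13-deficient, left 0 of all genes past the adjusted threshold, with 5257 to 5600 at an unadjusted p under 0.05. The differences in those fits were 0.24 to 0.37 for PDIA6, -0.40 to -0.27 for DNAJB9 and -0.25 to -0.18 for SEL1L.

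**Figure D2:**
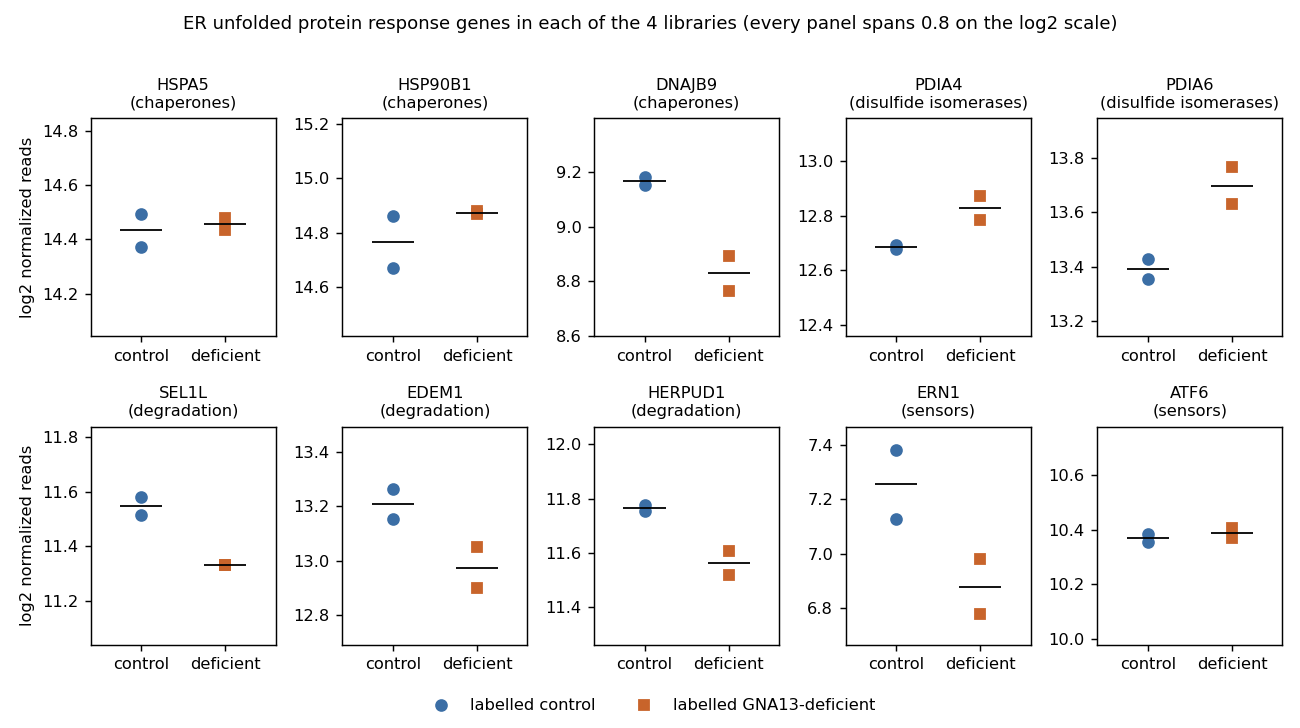
Level of each of the 10 genes in each of the 4 libraries. The vertical axes give the deposited log2 normalized reads, and each point is 1 library, with the 2 libraries labelled control and the 2 labelled GNA13-deficient shown apart and bars for their means. Only HSPA5 and ATF6 have overlapping genotypes, and HSP90B1 is separated by 0.006.

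HSP90B1 and HSPA5, the main chaperones of the ER lumen, were the most abundant of the 10 genes. HSPA5 (Entrez 3309) encodes BiP, the HSP70 chaperone of the ER that also holds the 3 sensors inactive, and it stood at log2 values of 14.37 and 14.49 in control and 14.43 and 14.48 in GNA13-deficient libraries. Both GNA13-deficient values lay between the control values. The difference was 0.02 (SE 0.08, adjusted p = 0.863, 95% interval -0.17 to 0.22), and it was -0.16 after quantile normalization. HSP90B1 (Entrez 7184) encodes GRP94, the HSP90 paralog of the ER, and measured 14.86 and 14.67 in control and 14.87 and 14.88 in GNA13-deficient libraries. Its lower control library set most of the difference of 0.11 (SE 0.09, adjusted p = 0.445, interval -0.13 to 0.35), which was 0.20 without control replicate 1 and 0.0115 without control replicate 2. Both genes have processed pseudogenes in the human genome, and how the authors' counting treated reads that fit several places is not given in the sources used here. With 20867 to 29245 reads per library, counting error on these differences was at most 0.0098, well under the spread between duplicates.

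DNAJB9 (Entrez 4189) encodes ERdj4, a co-chaperone that recruits BiP to IRE1 and to ERAD clients. It measured 9.15 and 9.18 in control and 8.77 and 8.89 in GNA13-deficient libraries, so both of the latter were below both of the former. It fell by 0.34 on the log2 scale (SE 0.08, adjusted p = 0.0402, 95% interval -0.56 to -0.12), which is 0.791-fold. The gene lies on chromosome 7 from 108210311 to 108215294 (GRCh37, plus strand). It had the fewest reads among the called genes, 559 and 590 against 424 and 442, and counting error alone gave an SE of 0.06. The fall did not pass the test after quantile normalization (difference -0.24, adjusted p = 0.118) or after centring on the library median (-0.13, adjusted p = 0.347). It passed under 7 of 11 alternatives that kept all 4 libraries, with adjusted p from 0.0183 to 0.347.

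The protein disulfide isomerases form and rearrange disulfide bonds in folding proteins. PDIA6 (Entrez 10130), the isomerase P5, is also known to bind IRE1 and PERK and limit their activity. It stood at 13.36 and 13.43 in control and 13.63 and 13.77 in GNA13-deficient libraries, with both of the latter higher. It rose by 0.31 (SE 0.07, adjusted p = 0.0367, 95% interval 0.11 to 0.50), or 1.24-fold, the only rise among the 10 genes in this fit. The gene lies on chromosome 2 from 10923517 to 10978103 (GRCh37, minus strand). The difference was 0.15 after quantile normalization (adjusted p = 0.112) and 0.51 after centring on the library median (adjusted p = 0.0147). It passed under 8 of 11 alternatives, with adjusted p from 0.0042 to 0.149. PDIA4 (Entrez 9601), known as ERp72, measured 12.68 and 12.69 in control and 12.78 and 12.87 in GNA13-deficient libraries. Its duplicates did not overlap, but its difference of 0.14 (SE 0.06, adjusted p = 0.135, interval -0.01 to 0.29) did not pass the test. Centring on the library median brought it to 0.35 (adjusted p = 0.0211, with 0.0211 to 0.916 over the 11 alternatives), where the median of all genes stood at 0.18.

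The 3 ERAD genes all had lower values in both libraries labelled GNA13-deficient. SEL1L (Entrez 6400) encodes the adaptor of the HRD1 ubiquitin ligase and was at 11.52 and 11.58 in control and at 11.33 in each GNA13-deficient library. It fell by 0.22 (SE 0.05, adjusted p = 0.0376, 95% interval -0.35 to -0.08), or 0.861-fold, and it lies on chromosome 14 from 81937891 to 82000197 (GRCh37, minus strand). EDEM1 (Entrez 9695) encodes a protein that helps to trim mannose from glycoproteins bound for degradation. It measured 13.27 and 13.15 in control and 13.05 and 12.90 in GNA13-deficient libraries, a difference of -0.24 (SE 0.08, adjusted p = 0.0863, interval -0.44 to -0.03). HERPUD1 (Entrez 9709) encodes a scaffold of the HRD1 complex, whose promoter carries the ERSE-II printed above. Its values of 11.75 and 11.78 in control and 11.52 and 11.61 in GNA13-deficient libraries gave a difference of -0.20 (SE 0.06, adjusted p = 0.0563, interval -0.35 to -0.05). The intervals of EDEM1 and HERPUD1 excluded 0 before adjustment over all genes, and the adjusted p did not pass. Quantile normalization placed all 3 past the threshold, with differences of -0.25 (SEL1L), -0.37 (EDEM1) and -0.25 (HERPUD1) and adjusted p of 0.0218, 0.0207 and 0.0224. Centring on the library median placed none of them past it, with differences of -0.008, -0.027 and 0.0075 that were below the median of all genes of 0.18 under that scaling. Over 11 alternatives the adjusted p ranged from 0.0169 to 0.934 for SEL1L, from 0.00821 to 0.792 for EDEM1 and from 0.0199 to 0.943 for HERPUD1.

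The 2 sensors among the 10 genes did not pass the test. ERN1 (Entrez 2081) was the least abundant gene, with 164 and 142 reads in control and 123 and 102 in GNA13-deficient libraries, and log2 values of 7.38 and 7.13 against 6.98 and 6.78. Both GNA13-deficient values were lower, but the gap between duplicates was large and the difference of -0.38 had an SE of 0.18 (adjusted p = 0.182, 95% interval -0.83 to 0.08). Counting error alone gave an SE of 0.13, and quantile normalization brought the difference to 0.0125, so no direction is given for ERN1. ATF6 (Entrez 22926) measured 10.38 and 10.36 in control and 10.37 and 10.41 in GNA13-deficient libraries, which overlap. Its difference was 0.017 (SE 0.06, adjusted p = 0.858, interval -0.13 to 0.16). Relative to centred libraries it was 0.23 (adjusted p = 0.0443), with 0.0443 to 0.965 over the 11 alternatives.

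**Figure D3:**
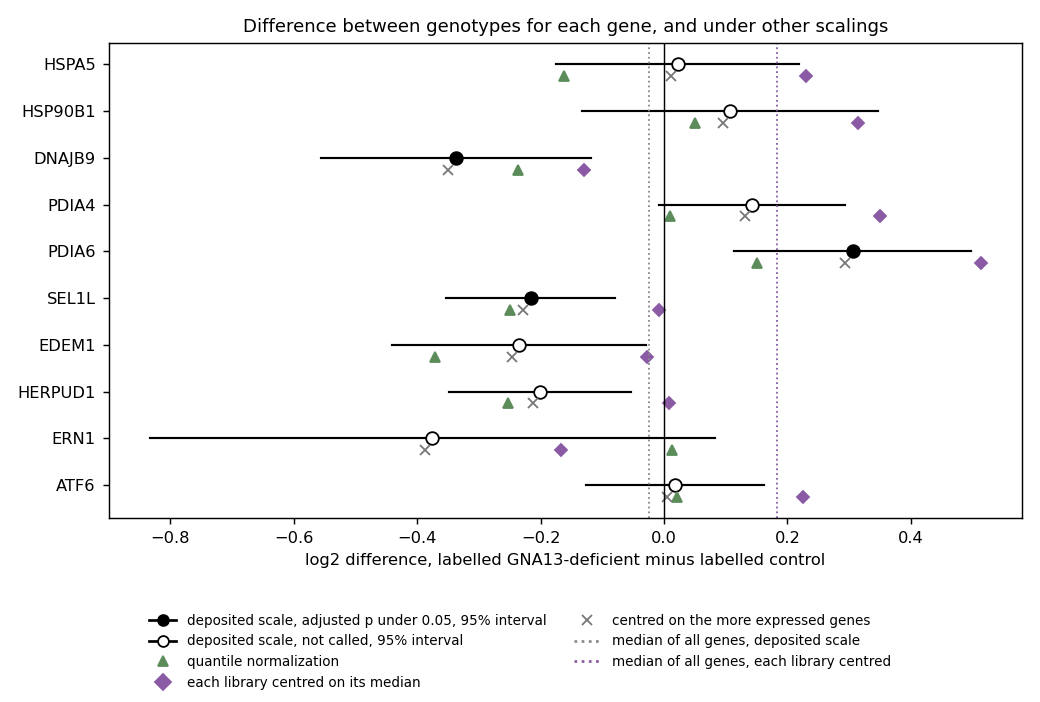
Log2 difference of each of the 10 genes, GNA13-deficient minus control, on the deposited scale with its 95% interval from limma (circles, filled where the adjusted p is under 0.05), and under 3 other scalings without intervals (triangles, diamonds and crosses). Dotted lines are the medians of all genes, -0.02 as deposited and 0.18 after centring on the library median. PDIA6 lies above 0 and SEL1L and DNAJB9 below 0 at an adjusted p under 0.05. The intervals of EDEM1 and HERPUD1 exclude 0 without passing after adjustment, and that of ERN1 is the widest.

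Levels of different genes were compared per kilobase of the canonical GENCODE transcript (GRCh37), in normalized reads per kilobase. In control libraries the mean order was HSP90B1 (10030), HSPA5 (5646), PDIA6 (4720), PDIA4 (2382), EDEM1 (1551), HERPUD1 (1219), SEL1L (378.1), DNAJB9 (238.5), ATF6 (177.1) and ERN1 (19.42). In libraries labelled GNA13-deficient PDIA6 (5838) stood beside HSPA5 (5731), and the other places kept the order, from HSP90B1 at 10780 to ERN1 at 14.95. Over the 4 libraries HSPA5 ranged from 5415 to 5877 and PDIA6 from 4597 to 6113, so these 2 neighbors overlapped. DNAJB9 ranged from 180.6 to 240.9 and ATF6 from 175.4 to 181.5, which also overlapped. No other neighbors in the order overlapped, with EDEM1 (1249 to 1610) just above HERPUD1 (1028 to 1228). HSP90B1, HSPA5, PDIA6 and PDIA4 thus stood above the ERAD genes, and DNAJB9 and both sensors stood below them.

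Ratios between genes within a library are not changed by any constant that scales the whole library. The mean log2 value of the 5 folding genes (HSPA5, HSP90B1, DNAJB9, PDIA4 and PDIA6) minus that of the 3 ERAD genes was 0.71 and 0.72 in control and 0.93 and 1.03 in GNA13-deficient libraries. The mean difference between the genotypes was 0.27, with 0.21 to 0.32 on leaving out each library in turn and 0.25 after quantile normalization. Without DNAJB9, the folding gene that fell, the ratio was 1.64 and 1.65 against 1.96 and 2.05, a difference of 0.36. This grouping was made after the values had been seen, so the ratio is a description with no test. The same ratio over the wider lists of chaperones, disulfide enzymes and ERAD genes, without the 10 genes (31 against 23 genes), was 0.33 in each control library and 0.36 and 0.35 in GNA13-deficient libraries, a difference of 0.0265. These other genes held 2 rises and 5 falls among chaperones, 4 rises and 3 falls among disulfide enzymes and 4 rises and 4 falls among ERAD genes.

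**Figure D4:**
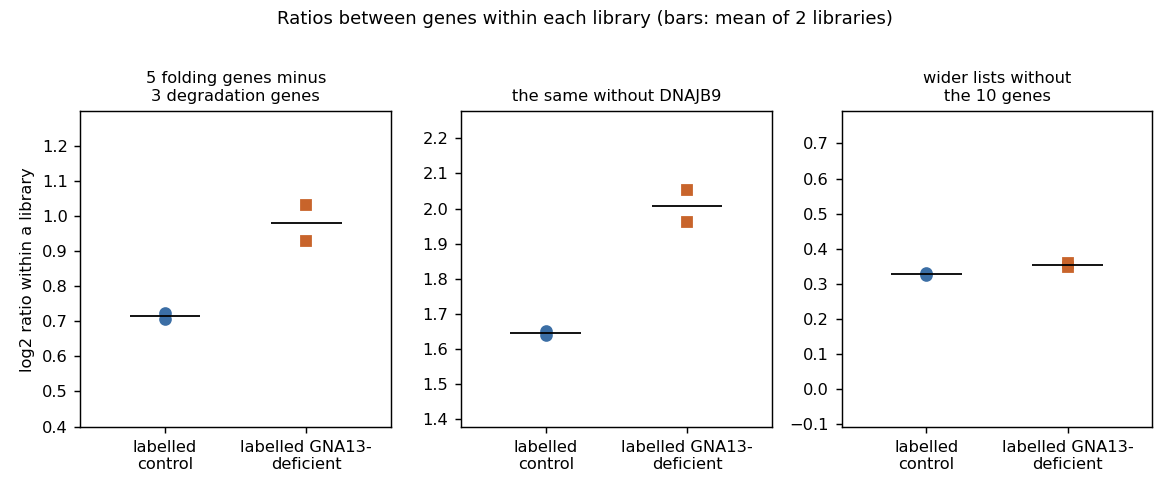
Within-library log2 ratios of folding genes over ERAD genes for the 4 libraries: 5 over 3 of the 10 genes, the same without DNAJB9, and the wider lists without the 10 genes (31 over 23). The vertical axes give log2 ratios, span equal ranges and do not start at 0, each point is 1 library and bars are means. The genotypes differ by 0.27 and 0.36 in the first panels and by 0.0265 in the last.

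The wider ER pathway was examined with 6 gene lists, of which 93 of 94 genes other than the 10 above could be tested. Of these, 11 rose and 19 fell, 30 in all, with a median difference of 0.014. The share called, 32.3%, was close to the 29.7% of all genes tested, and the counts of single lists below are to be read against that share. Centring on the library median turned the counts into 36 higher and 8 lower, and quantile normalization gave 15 higher and 23 lower. Centring on the more expressed genes, added after seeing the data, gave 11 higher and 20 lower. The balance of directions thus rests on the scaling.

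The list of sensors and transducers held falls and no rises on the deposited scale. Of its 9 tested genes, ERN1 and ATF6 included, 0 rose and 4 fell, with a median of -0.28. Centring on the library median gave 3 higher and 2 lower, and quantile normalization gave 0 higher and 5 lower. ATF6B, the paralog of ATF6, measured 11.59 and 11.57 in control and 10.94 and 10.97 in GNA13-deficient libraries and fell by 0.62 (SE 0.05, adjusted p = 0.00223). CREB3L2, an ATF6-related transcription factor of the ER membrane, went from 11.65 and 11.75 to 11.08 and 10.84 and fell by 0.74 (SE 0.10, adjusted p = 0.00658). Both stayed past the threshold after quantile normalization and after centring, and CREB3L2 lost it with no filter on low values (adjusted p = 0.0817). MBTPS1, the site-1 protease that cleaves ATF6, fell by 0.45 (adjusted p = 0.0171), and EIF2AK3, which encodes PERK, fell by 0.28 (adjusted p = 0.021). Neither passed after centring on the library median, with differences of -0.24 and -0.075. Both also lost their calls with no filter (adjusted p = 0.12 and 0.0697) and with no variance trend (adjusted p = 0.086 and 0.11). XBP1 stood at 12.55 and 12.67 in control and 12.28 and 12.42 in GNA13-deficient libraries, a difference of -0.26 that did not pass (SE 0.08, adjusted p = 0.0646). XBP1 passed under 4 of 11 alternatives that kept all libraries, with adjusted p from 0.00617 to 0.715. MBTPS2, the site-2 protease, differed by 0.11 (adjusted p = 0.247), and RTCB (listed as C22orf28), the ligase that joins XBP1 exons, by 0.18 (adjusted p = 0.163). ERN2, the IRE1 paralog of gut epithelium, was listed at 0 in every library.

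In the PERK arm the genes that passed on the deposited scale all fell. Of its 10 genes 0 rose and 3 fell (EIF2AK3, PPP1R15A and DNAJC3), while the median was 0.18, opposite in sign to the calls. Centring on the library median gave 5 higher and 0 lower, and quantile normalization gave 3 higher and 3 lower. PPP1R15A (GADD34), which brings a phosphatase to eIF2α, measured 9.32 and 9.29 in control and 8.79 and 8.88 in GNA13-deficient libraries and fell by 0.48 (SE 0.08, adjusted p = 0.0132). DNAJC3, a co-chaperone of the ER known as an inhibitor of eIF2α kinases, fell by 0.29 (adjusted p = 0.0246). Neither fall passed after centring or with no variance trend (adjusted p = 0.0516 and 0.112), and DNAJC3 also lost its call with no filter (adjusted p = 0.0876). The transcription factors of this arm did not pass on the deposited scale. ATF4 measured 13.05 and 12.89 against 13.18 and 13.24 (difference 0.24, adjusted p = 0.0709), and DDIT3 (CHOP) measured 8.22 and 7.87 against 7.51 and 7.60 (difference -0.49, adjusted p = 0.0764). Of the alternatives that kept all libraries, ATF4 passed under 4 of 11 and DDIT3 under 0 of 10. ATF3 (0.63, adjusted p = 0.0692), CHAC1 (0.57, adjusted p = 0.13) and TRIB3 (0.28, adjusted p = 0.0986), which are known targets of ATF4 or CHOP, were at higher values in both GNA13-deficient libraries without passing. After quantile normalization ATF3 (1.01, adjusted p = 0.0155), CHAC1 (0.96, adjusted p = 0.0263) and TRIB3 (0.37, adjusted p = 0.0497) passed. After centring on the library median ATF3 (adjusted p = 0.0307) and TRIB3 (adjusted p = 0.0276) passed and CHAC1 (adjusted p = 0.0537) did not. EIF2S1, which encodes eIF2α, differed by 0.19 (adjusted p = 0.0872), and PPP1R15B, the constitutive partner of the phosphatase, by 0.18 (adjusted p = 0.0588).

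Among 18 ER chaperones and co-chaperones, HSPA5, HSP90B1 and DNAJB9 included, 2 rose and 6 fell, and the median was -0.05. The centred values gave 6 higher and 3 lower, and quantile normalization gave 3 higher and 5 lower. DNAJC1, a membrane co-chaperone of BiP, rose by 0.87 (SE 0.11, adjusted p = 0.00626), from 8.80 and 8.63 to 9.68 and 9.48. SIL1, which releases ADP from BiP, fell by 0.69 (adjusted p = 0.00701), and SEC63, which places BiP at the translocon, fell by 0.56 (adjusted p = 0.00367). These 3 calls held after quantile normalization and after centring, but with no filter on low values DNAJC1 (adjusted p = 0.0682) and SIL1 (adjusted p = 0.0536) lost them. The values of HSPA5 itself overlapped between genotypes.

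Among 18 disulfide enzymes, PDIA4 and PDIA6 included, 5 rose and 3 fell, with a median of 0.036. Centring gave 8 higher and 0 lower, whereas quantile normalization gave 3 higher and 4 lower with a median of -0.01. TMX4, a membrane-bound thioredoxin-like protein, rose by 0.59 (SE 0.05, adjusted p = 0.00272), from 11.41 and 11.35 to 11.98 and 11.96. TXNDC12 (ERp18) rose by 0.43 (adjusted p = 0.0225). P4HB, the founding protein disulfide isomerase, rose by 0.39 (SE 0.10, adjusted p = 0.0375), from 13.52 and 13.71 to 13.93 and 14.08. All 3 rises held after quantile normalization and after centring. TXNDC12 and P4HB lost theirs with no filter (adjusted p = 0.138 and 0.191) and with no variance trend (adjusted p = 0.0975 and 0.126), and TMX4 kept its call under both.

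Among 26 ERAD genes, SEL1L, EDEM1 and HERPUD1 included, 4 rose and 5 fell, with a median of -0.09, and centring gave 9 higher and 2 lower. Quantile normalization instead gave 3 higher and 8 lower, with a median of -0.11. HERPUD2, the paralog of HERPUD1, fell by 1.03 (SE 0.06, adjusted p = 0.00151), from 10.24 and 10.22 to 9.22 and 9.18, or 0.49-fold. UFD1 (listed as UFD1L), a cofactor of the p97 ATPase that extracts ERAD substrates, rose by 0.42 (adjusted p = 0.0221), a call lost with no filter (adjusted p = 0.134) and with no variance trend (adjusted p = 0.098). Among 24 genes of translocation and N-glycosylation 1 rose and 2 fell, with a median of 0.08, and centring gave 8 higher and 1 lower. For this list quantile normalization gave 3 higher and 3 lower. SRPRA (listed as SRPR), a subunit of the receptor of the signal recognition particle, fell by 0.67 (SE 0.05, adjusted p = 0.00205). The catalytic subunits of the 2 oligosaccharyltransferase complexes went opposite ways. STT3B rose by 0.29 (adjusted p = 0.0149) and STT3A fell by 0.23 (adjusted p = 0.0453). The fall of STT3A did not pass after centring (difference -0.018), with no filter or with no variance trend (adjusted p = 0.128 and 0.171), and the rise of STT3B did not pass with no variance trend (adjusted p = 0.093).

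**Figure D5:**
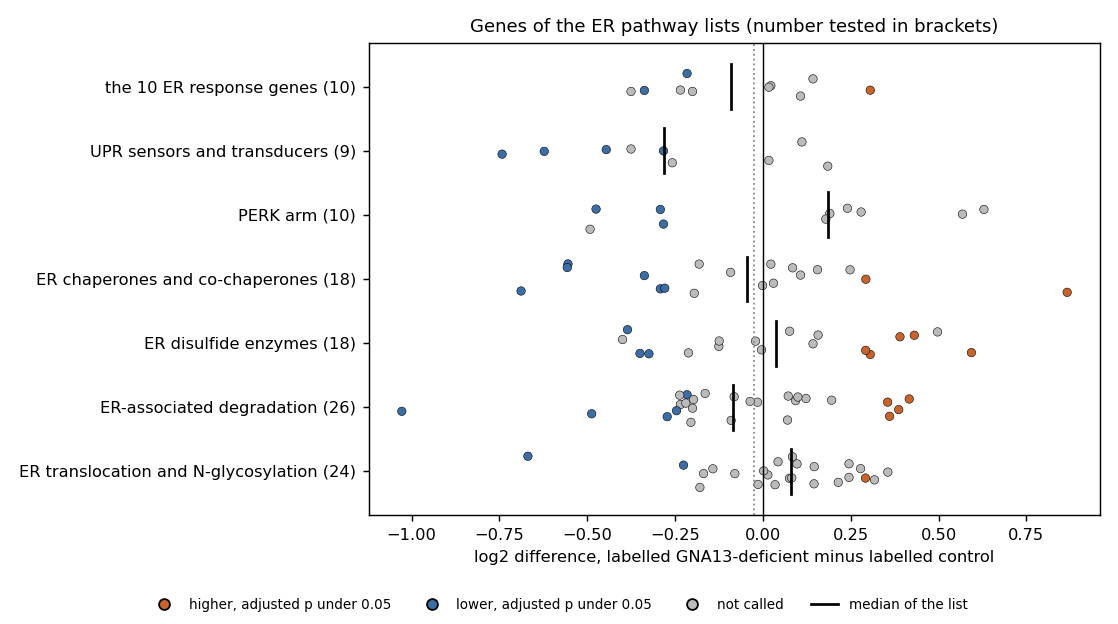
Log2 differences, GNA13-deficient minus control, for the 10 genes and for each ER pathway list. Each dot is 1 gene, colored where its adjusted p is under 0.05, black bars are list medians, and the dotted line is the median of all genes tested, -0.02. A gene may belong to several lists, and the number tested stands beside each name.

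Genes were also grouped by the promoter elements, as a description chosen after the values had been seen. Of 25 genes with ERSE in a window, 17 were tested, HSPA5, HSP90B1 and PDIA6 included. Of these 1 rose (PDIA6) and 2 fell (EIF2A, a translation factor, and TRIM5, an antiviral restriction factor), with a median difference of -0.001. The ER genes among them included the lectin chaperones CALR (0.25, adjusted p = 0.0735) and CANX (0.16, adjusted p = 0.191), CRELD2 (-0.001, adjusted p = 0.994) and XBP1 (-0.26, adjusted p = 0.0646). They also included ERO1B (listed as ERO1LB, -0.40, limma adjusted p = 0.164), SERP1 (-0.0075, adjusted p = 0.957), ALG12 (0.05, adjusted p = 0.751) and FICD (0.06, adjusted p = 0.925). Of 19 genes with ERSE-II 14 were tested, of which 2 rose (RUVBL2 and SHCBP1) and 1 fell. The one that fell was HYOU1, an ER chaperone and exchange factor of BiP, at -0.56 (SE 0.07, adjusted p = 0.00634). The median of the 14, HERPUD1 included, was -0.16. The counts of both groups are to be read against the 29.7% of all genes tested that passed. Centring on the library median added 0.21 to every difference, more than the size of either median, so their sign rests on the scaling. Some genes had low values, such as GLRA2 (ERSE, means of 0 in control and 1.07 in GNA13-deficient libraries) and LOC441242 (ERSE-II, 3.45 and 1.57). The genes of this paragraph were named after their values had been seen.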

How the data were processed

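Poly(A)-selected stranded libraries were prepared from NUDUL1 cells treated with U46619. Reads were mapped by the authors with STAR against hg19, per their methods, counted them with HTSeq, per the submitters' processing notes, and deposited log2 values of normalized reads. Tool versions, the annotation and the method of normalization are not given in the sources used here. A row of total mapped reads, deposited on a linear scale, was used only for depth. The sample labels give 2 × 50 cycles and the methods longer reads.

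The deposited log2 values were used without a pseudocount. Genes with a value over 0, the lowest listed, in 2 or more of the 4 libraries were fitted in R 4.3.3 by limma 3.58.1 (lmFit, then eBayes, trend in the variance). The model held genotype alone and left 2 residual degrees of freedom. P values are two-sided and adjusted by Benjamini-Hochberg over the 16945 genes tested. Low values step in whole reads, so reads per gene were recovered by a constant per library (99.987% to 100% of values up to 400 reads came out whole within rounding) and gave the reads printed. In control replicate 2 a single read is also listed at 0. Counting error covers reads only. Genes were matched by Entrez number. The duplicates of control and of GNA13-deficient cells differed by a median of 0.143 and 0.140 (log2), and neither pair was identical.

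The 10 genes, the lists and the tests were chosen with earlier results of these data known. Named by rule were the 10 genes, GNA13, all genes of the sensor list and of the PERK arm, and from each other list the 3 largest differences with an adjusted p under 0.05 and no overlap between genotypes. 1 gene named by this rule is not reported here. Marker genes were given as a check of the cell type. The alternatives tried were no filter on low values, a filter at the median mean, pseudocounts of 1 and 10, quantile normalization, centring on the library median, the replicate number as a block, no variance trend, a robust variance prior, voom weights on recovered reads and leaving out each library. Centring on the more expressed genes was added after seeing the data. The pipeline was tested on simulated data. Promoters and figures used Python 3.11.15, numpy 2.4.6, pandas 2.3.3 and matplotlib 3.10.9.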

Additional observations from a re-analysis of the deposited data

How the results depend on the processing

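With 2 libraries per genotype, p values rested on a variance pooled across genes. With no filter 1999 genes (7.97% of those tested) were called in all, 0 of the 10 genes (4 at an unadjusted p under 0.05) and 14 other ER pathway genes. Without the variance trend the counts were 2718 (16% of those tested), 0 (2 at an unadjusted p under 0.05) and 9. The filter at the median mean and voom weights each called 5 of the 10 genes, against 3, where 48.2% and 31.9% of all genes were called. The filter removed ERN1 and gave a median difference of 0.017 over the 9 genes left, and centring on the library median gave 0.12, both opposite in sign to -0.09. Quantile normalization reversed HSPA5 (-0.16) and ERN1 (0.0125), and centring on the library median reversed HERPUD1 (0.0075). Same-numbered libraries deviated together (correlation 0.453 over 8473 genes), but the numbers have no stated source and there are only 2 pairs. With the replicate number as a block 6616 genes, 6 of the 10 genes (2 higher, 4 lower) and 49 other ER pathway genes were called. That setting called 39% of all genes tested and 52.7% of the other ER pathway genes. Leaving out each library left 1 residual degree of freedom, with the lone library assumed to vary like the others, and called 0 to 0 genes in each of the 3 counts. At an unadjusted p under 0.05 limma then had 5257 to 5600 genes in all, 1 to 2 of the 10 and 29 to 32 other ER pathway genes. The median over the 10 genes was -0.11 to -0.06 in those fits, HSPA5 ranged from -0.0365 to 0.0815 and ATF6 from -0.0015 to 0.0355. GNA13 stayed past the threshold in 11 of 11 alternatives with all libraries. Depth limited ERN1 (102 to 164 reads) and DNAJB9 (424 to 590 reads) most.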

Other observations

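Chaperones of the other compartments were set beside those of the ER. Of 12 mitochondrial chaperones and proteases 7 rose and 0 fell, with a median difference of 0.27 and summed normalized reads of 103600 to 104300 in control and 132600 to 137200 in GNA13-deficient libraries. Centring on the library median gave 9 higher and 0 lower, and quantile normalization 5 higher and 1 lower. Of all genes tested 29.7% were called on the deposited scale, 36.8% after that centring and 31.2% after quantile normalization. LONP1, the matrix protease, measured 12.29 and 12.36 in control and 12.91 and 12.99 in GNA13-deficient libraries and rose by 0.63 (SE 0.06, limma adjusted p = 0.00316). HSPE1, the co-chaperonin of HSP60, rose by 0.50 (adjusted p = 0.00509) and CLPP, a protease subunit, by 0.50 (adjusted p = 0.0268).

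Of 14 tested cytosolic heat shock chaperones 4 rose and 3 fell, with a median difference of 0.18. Centring on the library median gave 6 higher and 2 lower, and quantile normalization 6 higher and 3 lower. These counts are to be read against the same shares of all genes. HSPH1, an HSP110 exchange factor, went from 13.60 and 13.47 to 14.50 and 14.49 and rose by 0.96 (SE 0.07, adjusted p = 0.00205). HSP90AA1, the inducible cytosolic HSP90, rose by 0.77 (adjusted p = 0.0105), whereas its ER paralog HSP90B1 differed by 0.11 without passing. The small heat shock gene HSPB1 moved the most, from 274 and 333 reads in control to 15 and 21 in GNA13-deficient libraries, a log2 difference of -4.02 (SE 0.27, adjusted p = 0.00169). The calls named for both lists held after quantile normalization and after centring, but HSP90AA1 lost its call with no filter on low values (adjusted p = 0.328), and CLPP with no filter (adjusted p = 0.174) and with no variance trend (adjusted p = 0.107). Whether the lists differed from one another was not tested.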
